A study of Arabidopsis thaliana with 4 samples.

Results

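Transcripts of the 6 *Arabidopsis thaliana* genes that encode the enzymes writing N6-methyladenosine (m6A) into RNA, and their partner proteins, were followed in seedlings. The genes were taken by locus identifier: *MTA* (AT4G10760), *MTB* (AT4G09980), *FIP37* (AT3G54170), *VIR* (AT3G05680), *HAKAI* (AT5G01160) and *FIO1* (AT2G21070). All 6 were found among the 33544 genes listed, and all 6 passed the filter on low values, as did 19308 genes in all. Polyadenylated RNA came from seedlings aged 14 days of 2 genotypes, *ect2*, a T-DNA insertion mutant of *ECT2* in the Col-0 background, and wild-type Col-0, with 2 libraries each. Both were kept at 22°C with 16 h of light and 8 h of dark, and no treatment is named. The labels give no allele or number of lines for the insertion, allow either Murashige and Skoog medium or soil as the substrate, and do not say whether replicates were grown apart. P-values therefore measure the spread between these libraries, which may be technical. Values are taken to be FPKM, fragments per kilobase of transcript scaled to the library's mapped fragments, a unit inferred from the headers and values. Levels of different genes are set side by side on that assumption.

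In plants, as in animals, m6A is placed on mRNA in the nucleus by a large writer complex. MTA is its catalytic subunit and transfers the methyl group from S-adenosylmethionine. MTB is a partner of the same MT-A70 enzyme family, FIP37 and VIR are scaffold subunits, and HAKAI is a RING-type protein of the ubiquitin ligase kind. FIO1 is a methyltransferase of another family that acts apart from this complex, with U6 small nuclear RNA among its substrates, and it is known for effects on the circadian clock and flowering. The m6A mark is read by YTH-domain proteins, of which ECT2 is one, so the comparison asks whether writer transcripts differ when a reader gene is disrupted.

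The codons of an active-site motif are printed for the methyltransferases among these genes. Asn-Pro-Pro-Phe was sought only in *FIO1*. Asp-Pro-Pro-Trp was sought in *MTA*, *MTB*, AT1G19340, *FIP37* and *HAKAI*, with no match in *FIP37* or *HAKAI*. It was not sought in *FIO1*, nor in *VIR*, which was left out by name as not a methyltransferase. The difference between *FIO1* and the MT-A70 family genes was thus set by the search and is not a result. Capitals mark the 4 motif codons, which are flanked by 18 bases of coding sequence on each side. Sequences are from the RefSeq annotation of TAIR10.1 and run 5′ to 3′ on the coding strand. AT1G19340, annotated as another MT-A70 family methyltransferase, is included for comparison. In *MTA* (chr4:6620772-6620819, minus strand, exon 4), *MTB* (chr4:6250072-6250119, minus strand, exon 1) and AT1G19340 (chr1:6685827-6685874, plus strand, exon 4) the capitals read Asp-Pro-Pro-Trp. In *FIO1* (chr2:9041809-9041856, plus strand, exon 3) they read Asn-Pro-Pro-Phe.
MTA codons 482 to 485: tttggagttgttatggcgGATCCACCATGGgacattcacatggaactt
MTB codons 644 to 647: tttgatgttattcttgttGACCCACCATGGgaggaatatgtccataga
AT1G19340 codons 233 to 236: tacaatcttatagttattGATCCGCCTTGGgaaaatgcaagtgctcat
FIO1 codons 236 to 239: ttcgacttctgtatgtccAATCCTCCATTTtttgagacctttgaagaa

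The loci differ widely in size. *VIR* has the longest annotated transcript, 7041 nt in 28 exons with 2138 codons, and *FIP37* the shortest, 1364 nt in 12 exons with 330 codons. *MTA* (685 codons) and *MTB* (963 codons) both lie on the minus strand of chromosome 4, *FIP37* and *VIR* on chromosome 3, *FIO1* on chromosome 2 and *HAKAI* on chromosome 5. The 3′ end of *MTA* overlaps the opposite-strand gene AT4G10750 by 123 bp, and that of *MTB* overlaps the opposite-strand gene AT4G09970 by 58 bp. No source used here says whether counting used strand, so reads in these stretches could belong to either gene. *MTA* also overlaps AT4G05815 by 28 bp on the same strand, where strand would not tell reads apart. No level is listed for AT4G05815.

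The letters TGTAC and TGTAT, a DNA spelling of a motif reported for ECT2 binding, were searched on the sense strand of each annotated 3′ UTR, to show which writer transcripts carry them. They were found in 3 of 6 genes, against 63.2% of 23318 genes with an annotated 3′ UTR. *VIR* held 2 matches in 279 nt, where 67.4% of 3′ UTRs within 20% of that length held at least 1. *FIP37* held 1 in 187 nt (58.1%) and *MTB* 1 in 243 nt (64.5%). *MTA*, *HAKAI* and *FIO1* held none in 130, 325 and 151 nt, where 49.8%, 70.4% and 52.5% of 3′ UTRs of similar length held one. The matches are printed with the motif in capitals, at chr3:1660709-1660737 and chr3:1660634-1660662 for *VIR* (minus strand), chr3:20059411-20059439 for *FIP37* (plus strand) and chr4:6247752-6247780 for *MTB* (minus strand). A match describes these letters only.
VIR, first match: tgtctaataacaTGTACattgtttcagtt
VIR, second match: tagtcatattcaTGTACattagctagaaa
FIP37: caaaaaatgtttTGTACattttgaagttc
MTB: catacaatgtgaTGTATccaaatcaaatc

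The tables carry no read totals, which leaves their depth unknown in absolute terms. From the spacing of the lowest values, the depth of the *ect2* libraries relative to Col-0 replicate 2 was 1.39 and 0.966, and that of Col-0 replicate 1 was 1.45. The disrupted gene *ECT2* had 9.07 and 8.58 FPKM in *ect2*, against 137 and 76.7 FPKM in Col-0. Leaf genes were abundant and root genes present in every library, while *AG*, *AP3* and *PI*, which specify flower organs, were at or below 1.42 FPKM. Col-0 replicate 1 stood apart from the other 3 libraries. Its 7 seed storage and oil body genes summed to 241 FPKM, where the *ect2* libraries had 10.7 and 9.09 FPKM and Col-0 replicate 2 had 6.87 FPKM. Its 6 genes of sugar starvation and darkness summed to 68.6 FPKM, beside 1914 and 1146 FPKM in *ect2* and 1401 FPKM in Col-0 replicate 2. Differences of writer genes are therefore given with and without this library.

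*MTA*, the catalytic subunit, had levels of 6.19 and 5.78 FPKM in *ect2*, against 7.70 and 6.03 FPKM in Col-0. The groups overlapped, and Col-0 replicate 1 was the highest of the 4. Means were 5.99 ± 0.29 FPKM in *ect2* and 6.86 ± 1.19 FPKM in Col-0 (SD, n = 2 each). The difference, *ect2* minus Col-0 in log2(FPKM + 1), came to -0.16 ± 0.23 (SE), with a 95% interval from -0.75 to 0.42 (limma, adjusted p = 0.90 over all genes). Leaving out Col-0 replicate 1 gave -0.0083, and leaving out Col-0 replicate 2 gave -0.32. In bulk tissue, fewer cells that express a gene and less of its RNA per cell cannot be told apart.

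*MTB*, the partner of MTA, had 3.69 and 3.78 FPKM in *ect2*, against 4.95 and 3.65 FPKM in Col-0. Both *ect2* values lay between the Col-0 values, and Col-0 replicate 1 was again the highest. Means were 3.74 ± 0.062 FPKM in *ect2* and 4.30 ± 0.92 FPKM in Col-0 (SD, n = 2 each). The log2 difference was -0.15 ± 0.24 (95% interval -0.76 to 0.46; limma, adjusted p = 0.912), and it turned to 0.028 without Col-0 replicate 1. Markers of dividing cells summed higher in both Col-0 libraries. The 7 of them summed to 85.8 and 82.5 FPKM in *ect2* and to 136 and 120 FPKM in Col-0, with a negative log2 difference in 7 of 7 (limma called 0 of 7, and 3 had an unadjusted p below 0.05, as did 4.86% of all genes tested), and no marker at 0. The overlapping neighbours on the opposite strand were likewise highest in Col-0 replicate 1. AT4G10750 had 29.7 and 25.7 FPKM in *ect2* and 34.8 and 23.6 FPKM in Col-0. AT4G09970 had 2.70 and 2.42 FPKM in *ect2* and 5.45 and 3.65 FPKM in Col-0. The part of the marker and neighbour values in the *MTA* and *MTB* values was not tested.

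*FIP37*, a scaffold subunit, had 7.20 and 6.90 FPKM in *ect2*, against 6.76 and 8.86 FPKM in Col-0. Here Col-0 held both the lowest and the highest library, and its replicate 1 was the lowest, unlike for *MTA* and *MTB*. The log2 difference was -0.12 ± 0.24 (95% interval -0.71 to 0.47; limma, adjusted p = 0.931), and it turned to 0.053 without Col-0 replicate 2 but was -0.29 without Col-0 replicate 1. The next gene on the same strand, *CDKB1;1*, a mitotic kinase gene, starts 87 bp past the end of *FIP37* and does not overlap it.

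*VIR*, which has the longest coding sequence of the 6, had 3.67 and 2.56 FPKM in *ect2*, against 2.46 and 3.07 FPKM in Col-0. The groups overlapped, with *ect2* replicate 1 highest and Col-0 replicate 1 lowest. The log2 difference was 0.12 ± 0.26 (95% interval -0.53 to 0.77; limma, adjusted p = 0.938), and its sign turned without *ect2* replicate 1, to -0.076. Leaving out Col-0 replicate 1 gave 0.0031.

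*HAKAI*, the RING-type member, had the largest difference of the 6, together with *FIO1*. Its level was 20.03 and 13.19 FPKM in *ect2*, against 13.16 and 11.67 FPKM in Col-0. Both *ect2* libraries lay above both Col-0 libraries, but *ect2* replicate 2 and Col-0 replicate 1 were almost equal. The log2 difference was 0.37 ± 0.28 (95% interval -0.32 to 1.05; limma, adjusted p = 0.844). It was 0.083 without *ect2* replicate 1 and 0.65 without *ect2* replicate 2, so *ect2* replicate 1 carried most of it. With Col-0 replicate 1 left out it was 0.45. The 5 root genes summed to 385 and 240 FPKM in *ect2* and to 259 and 208 FPKM in Col-0, likewise highest in *ect2* replicate 1. Their difference was positive in 4 of 5, and limma called 0 of 5. The part of root tissue in the *HAKAI* values was not tested.

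*FIO1*, the methyltransferase outside the complex, had 5.72 and 4.90 FPKM in *ect2*, against 3.67 and 4.12 FPKM in Col-0. Both *ect2* libraries lay above both Col-0 libraries, by a wider margin than for *HAKAI*. Means were 5.31 ± 0.58 FPKM in *ect2* and 3.89 ± 0.32 FPKM in Col-0 (SD, n = 2 each), a ratio of 1.36. The log2 difference was 0.37 ± 0.23 (95% interval -0.20 to 0.93; limma, adjusted p = 0.842). It was 0.30 without Col-0 replicate 1. With any 1 library left out it stayed between 0.27 and 0.46, and it did not pass the threshold in any of these fits.

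**Figure D1:**
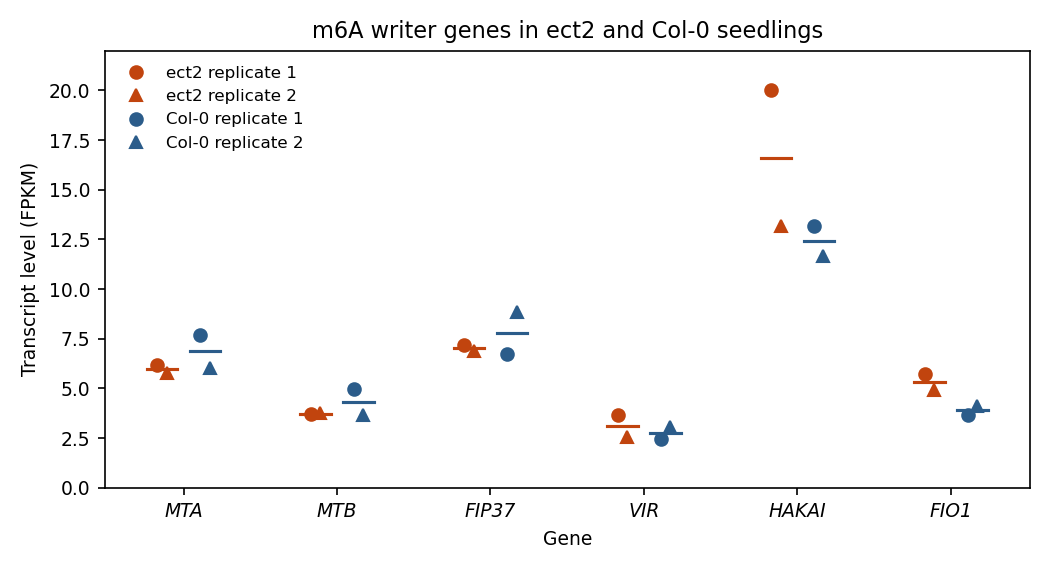
Transcript level in FPKM (vertical axis) of the 6 writer genes in each library, with *ect2* left of Col-0, symbols for replicates and short bars for group means of 2 libraries. *FIO1* and *HAKAI* are the genes whose *ect2* points all lie above their Col-0 points, and for *HAKAI* the nearest pair is 13.19 and 13.16 FPKM.

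Across the 6 genes, limma called 0 at an adjusted p below 0.05, and the p before adjustment was below 0.05 for 0 as well. Over all 19308 genes tested the shares were 0.0259% (5 genes) and 4.86% (938 genes). The count of 5 rests on single libraries: limma called 520 genes with Col-0 replicate 2 left out, 11 with Col-0 replicate 1 left out and 0 with either *ect2* library left out, and 0 writer genes each time. The differences were positive in 3 of 6 writer genes and negative in 3 of 6, with a median of -0.00019 beside -0.0096 over all genes tested. The absolute differences of *MTA*, *MTB*, *FIP37* and *VIR* were smaller than the 0.23 that is the median over all genes tested, while 29.7% and 29.9% of genes had a larger one than *HAKAI* and *FIO1*. Both *ect2* libraries lay above both Col-0 libraries in 2 of 6 writer genes and in 17.5% of all genes, and below them in 0 of 6 and in 20.2%. With 6 members, a count of 2 is not read as a property of the group. With 3 other scalings of the libraries *FIO1* kept its separation, whereas that of *HAKAI* was lost under all 3. Over the 6 genes the lowest end of a 95% interval was -0.76 (*MTB*) and the highest 1.05 (*HAKAI*). For each gene, differences within its own interval are not excluded. Even the difference of -3.40 of *ECT2* did not pass the adjusted threshold. An exact permutation test over 2 against 2 libraries cannot give a two-sided p below 0.333.

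**Figure D2:**
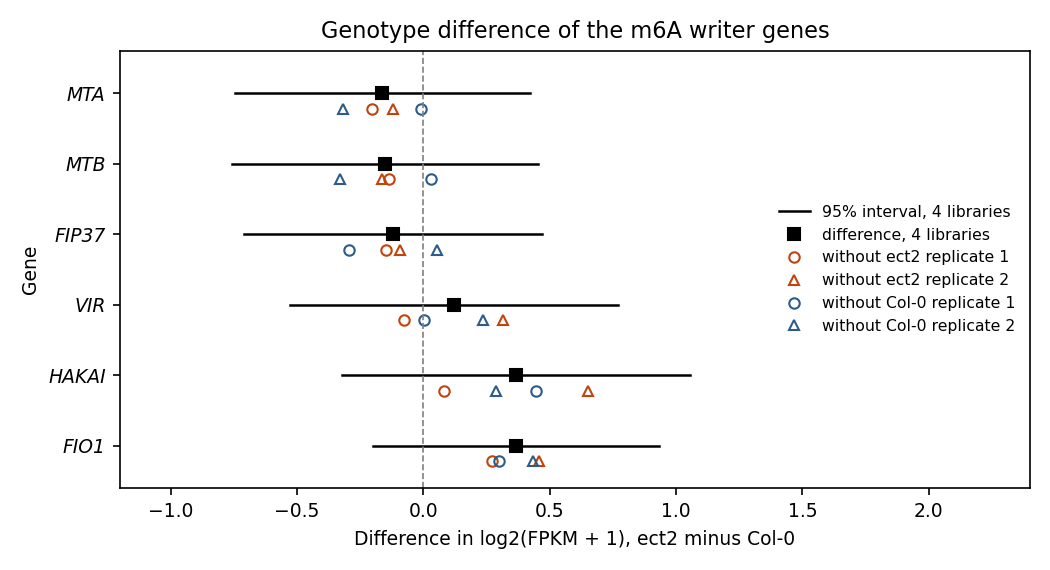
Difference in log2(FPKM + 1), *ect2* minus Col-0 (horizontal axis), for the 6 writer genes. Squares and lines are the limma estimate and its 95% interval from 4 libraries, and open symbols are the estimate with the named library left out; all 6 intervals include 0, and the open symbols fall on both sides of 0 for *MTB*, *FIP37* and *VIR*.

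In every writer gene except *FIO1*, the replicates of at least 1 genotype differed by more than the genotypes did. A replicate difference is between single libraries and a genotype difference between means of 2 libraries, so these measures are not alike. For *FIO1* the genotype difference of 0.37 was above both replicate differences. Replicate 2 minus replicate 1 in log2(FPKM + 1) ranged from -0.57 (*HAKAI*) to 0.027 (*MTB*) in *ect2*, and from -0.36 (*MTB*) to 0.35 (*FIP37*) in Col-0. *MTB*, *FIP37*, *VIR* and *FIO1* had replicate differences of opposite sign in the 2 genotypes, at 0.027, -0.054, -0.39 and -0.19 in *ect2* and at -0.36, 0.35, 0.23 and 0.13 in Col-0. The median absolute replicate difference over all genes tested was 0.23 in *ect2* and 0.34 in Col-0.

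All 6 genes had low to moderate levels, with 17.4% (*VIR*) to 59.0% (*HAKAI*) of tested genes at a lower mean. Averaged over the 4 libraries, *HAKAI* was highest at 14.5 ± 3.75 FPKM, followed by *FIP37* at 7.43 ± 0.97 FPKM and *MTA* at 6.43 ± 0.87 FPKM (SD, n = 4). *FIO1* was 4.60 ± 0.90 FPKM, *MTB* 4.02 ± 0.62 FPKM and *VIR* 2.94 ± 0.55 FPKM (SD, n = 4). The ranges of *HAKAI* and *FIP37* did not overlap, nor did those of *MTA* and *FIO1*. *FIP37* and *MTA* overlapped and changed order in 1 of 4 libraries, as did *FIO1* and *MTB*. In both cases the exception was Col-0 replicate 1. *MTB* and *VIR* overlapped in range, yet *MTB* was above *VIR* in 4 of 4 libraries, by as little as 1.01 times in *ect2* replicate 1. Of the summed level of the 5 complex genes, *HAKAI* made up 49.1% and 40.9% in *ect2* and 37.6% and 35.1% in Col-0.

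*MTA* and *MTB*, the MT-A70 pair, kept the most even ratio. *MTA* was 1.68 and 1.53 times *MTB* in the *ect2* libraries and 1.56 and 1.65 times in the Col-0 libraries. The SD of this log2 ratio over 4 libraries was 0.065, the smallest of 15 pairs of writer genes, and the next was 0.21 for *HAKAI* and *FIO1*. The largest, 0.45, was that of *MTB* and *FIO1*, whose ratio was 0.645 and 0.772 in *ect2* and 1.35 and 0.884 in Col-0. *FIO1* was thus above *MTB* in both *ect2* libraries and in Col-0 replicate 2.

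**Figure D3:**
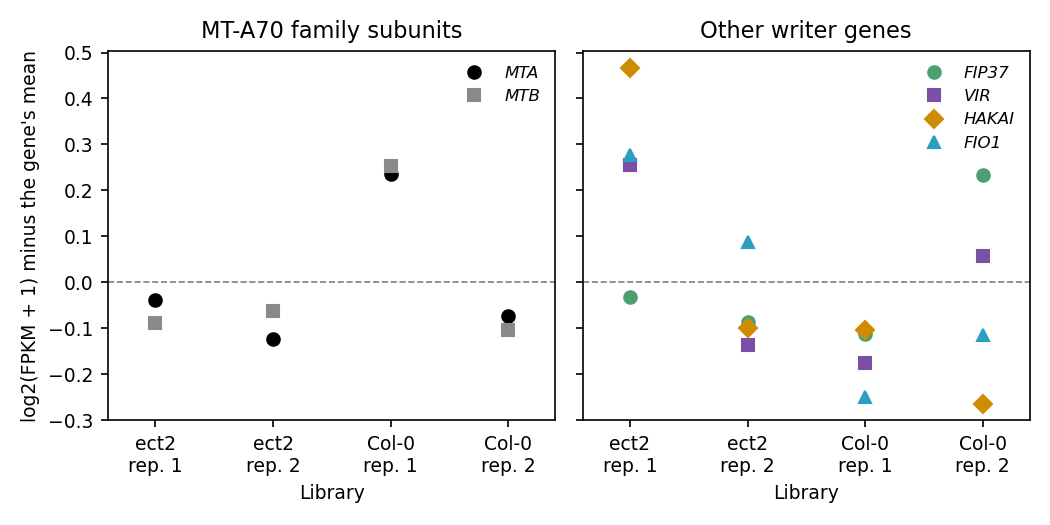
Level of each writer gene in each library as log2(FPKM + 1) minus the gene's mean over the 4 libraries (vertical axis), for *MTA* and *MTB* at left and the other 4 genes at right. *MTA* and *MTB* are highest in Col-0 replicate 1, while *VIR*, *HAKAI* and *FIO1* are highest in *ect2* replicate 1 and *FIP37* in Col-0 replicate 2.

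Likeness to *MTA* was measured as the root mean square difference between 2 genes in log2(FPKM + 1), each centred on its mean over the 4 libraries. By this measure *MTB* lay 0.043 from *MTA*, and 0.730% of the 19307 other genes tested lay nearer. For *FIP37*, *VIR*, *FIO1* and *HAKAI* the distance was 0.23, 0.26, 0.31 and 0.32, and 41.9%, 49.8%, 60.5% and 62.5% of genes lay nearer. Without Col-0 replicate 1 the share nearer than *MTB* was 6.88%, without Col-0 replicate 2 it was 3.07%, and without *ect2* replicates 1 and 2 it was 2.09% and 1.01%. The 3 nearest genes with a symbol were *RPT3* (AT5G58290), a proteasome subunit gene, at 0.011, *ATP3* (AT2G33040), a mitochondrial ATP synthase subunit gene, at 0.012, and *CYCD3;1* (AT4G34160), a D-type cyclin gene, at 0.015. With 4 libraries many genes share such a profile, so these are descriptions.

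Other genes of the m6A pathway gave 0 calls by limma in either direction as well, and *ECT2* was the 1 gene of these 4 lists with an unadjusted p below 0.05. Of 3 further genes listed beside the writers, 2 were tested. The CCCH zinc finger genes AT1G32360 and AT5G53440 had log2 differences of 0.33 and 0.25. AT1G32360 had 26.9 and 27.4 FPKM in *ect2*, against 18.4 and 25.03 FPKM in Col-0, without overlap. AT1G19340 did not pass the filter, at 0.844 and 0.951 FPKM in *ect2* and 0.894 and 2.98 FPKM in Col-0. Of 5 genes listed as RNA demethylases, which remove m6A, 4 were tested, with a median of -0.21 and 0 of 4 positive. The lowest difference, -0.38, was that of AT2G17970, with levels of 2.12 and 2.999 FPKM in *ect2*, against 3.27 and 3.93 FPKM in Col-0. The most abundant was AT4G02940, at 13.3 and 14.6 FPKM in *ect2*, against 19.7 and 12.5 FPKM in Col-0, and AT1G48980 was listed at 0 throughout. Of 13 YTH-domain genes, all tested, 3 had a positive difference, and the median was -0.17. The range ran from -3.40 for *ECT2* itself (limma, adjusted p = 0.153) to 0.48 for *CPSF30*, a polyadenylation factor gene with a YTH-domain isoform. For *ECT2* the adjusted p was 0.0193 and 0.00329 when Col-0 replicate 1 or 2 was omitted, but 1.00 for either *ect2* replicate omitted. *CPSF30* had 7.44 and 9.63 FPKM in *ect2*, against 6.96 and 4.83 FPKM in Col-0.

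The methyl donor cycle, which makes S-adenosylmethionine and clears its product, included genes far more abundant than the writers, although *MS3*, a methionine synthase gene, averaged only 2.88 FPKM over the 4 libraries. *SAHH1*, the hydrolase that clears S-adenosylhomocysteine, reached 1079 and 971 FPKM in *ect2*, against 1358 and 771 FPKM in Col-0. Of 11 genes tested, limma called 0, and 1 had a positive difference, *MAT4* at 0.16. The median was -0.18, and the lowest was *SAHH2* at -0.53. The 11 genes summed to 3289 and 3282 FPKM in *ect2*, against 4640 and 2700 FPKM in Col-0. Col-0 replicate 1 thus had the highest sum and Col-0 replicate 2 the lowest. The direction of the summed difference therefore depends on which Col-0 library is taken. *SAHH2* had 109 and 122 FPKM in *ect2* and 307 and 90.8 FPKM in Col-0, so that Col-0 replicate 1 alone was high, as for *MTA* and *MTB*.

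**Figure D4:**
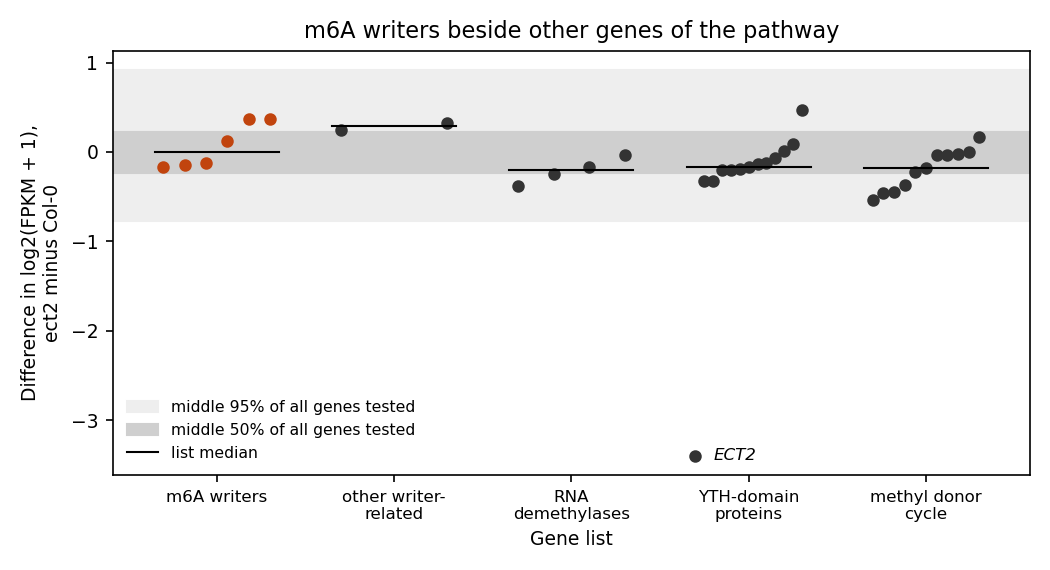
Difference in log2(FPKM + 1), *ect2* minus Col-0 (vertical axis), of each tested gene in 5 lists, sorted within each list, with a line at the list median and grey bands for the middle 50% (-0.24 to 0.23) and 95% (-0.77 to 0.92) of all genes tested. The 6 writer genes (red) lie within the 95% band with a median of -0.00019, and *ECT2* is the point at -3.40.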

How the data were processed

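mRNA was isolated from total RNA on oligo(dT) beads, and 100 ng went into NEBNext Ultra libraries, per the labels' protocols. The submitters' processing notes name cutadapt, TopHat and TAIR10. Which quantifier, annotation release and strand setting were used is not given in the sources used here. For each library the authors deposited 1 table, with values taken here to be FPKM, a unit inferred from the headers and values.

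A gene entered the test if 2 of 4 libraries held at least 1 FPKM. The fit used limma 3.58.1 (R 4.3.3) with its trend and robust options, applied to log2(FPKM + 1). Two-sided p-values received the Benjamini-Hochberg adjustment across 19308 genes, and 0.05 was the threshold. A pseudocount of 1 understates changes of low genes. The fit was first tested on simulated data, with changes far larger than the differences of the writer genes. That test therefore does not show whether differences of their size would be found. For relative depth, the commonest ratio between libraries was taken among values under 0.4 FPKM. Gene structures are RefSeq's on TAIR10.1 (transcript with the longest coding sequence), and 32809 of 33544 identifiers matched. The tables give no coordinates.

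The genes named are the 6 writer genes, *ECT2*, the extremes of each list, the 3 genes most like *MTA* and some overlapping or adjacent genes. The latter are genes that overlap *MTA* or *MTB* and the gene next to *FIP37*. Genes next to *VIR*, *HAKAI* and *FIO1*, which do not overlap them, are not described. Members and lists were chosen with earlier results of these data known. The alternatives included a block for replicate number, omission of each library in turn, other scalings, pseudocounts and minimums, limma without trend, and library weights. The overlap count under other scalings and the likeness to *MTA* with libraries left out were added after seeing the data.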

Additional observations from a re-analysis of the deposited data

How the results depend on the processing

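The count of writer genes called was 0 under every alternative that kept all 4 libraries. The smallest adjusted p of a writer gene among these was 0.812 (limma, equal library medians). As these alternatives called only 4 to 6 genes in all, a count of 0 among 6 genes could hardly have differed. Leaving out a library moved the count over all genes between 0 and 520 (0 when an *ect2* library was left out, where limma gave 284 and 431 genes an unadjusted p below 0.05), against 4 to 6 under the other alternatives, and the writer genes' median between -0.11 and 0.14. Single differences then ranged from -0.32 to -0.0083 for *MTA*, -0.33 to 0.028 for *MTB*, -0.29 to 0.053 for *FIP37*, -0.076 to 0.32 for *VIR*, 0.083 to 0.65 for *HAKAI* and 0.27 to 0.46 for *FIO1*. In these fits the lone library of a genotype is assumed to vary like the other genotype. The cause of the sign changes was not tested. Under the other alternatives no writer gene changed sign. *ECT2* passed when either Col-0 library was left out, at -2.98 (adjusted p = 0.0193) for replicate 1 and -3.81 (adjusted p = 0.00329) for replicate 2, and not when either *ect2* library was, at -3.44 and -3.36 (adjusted p = 1.00 each). Writer genes with groups apart numbered 1 with TMM factors (*FIO1*), and 2 with equal library medians and with quantile normalization (*FIO1* higher and *FIP37* lower in each). Over all genes tested, 19.4% were higher and 18.7% lower with TMM factors. The shares were 16.4% and 21.9% with equal library medians, and 18.2% and 19.5% with quantile normalization. The replicate block called 6 genes and 0 writer genes. Replicate deviations of the genotypes correlated at 0.014 across genes, so equal numbers do not show pairing. With 2 libraries a genotype, library weights left each difference as it was. Read totals are not given, so counting error could not be set beside these values.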
